A study of Drosophila melanogaster with 5 samples.

Results

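The comparison examined here asked how the chromatin map of the RNA helicase MLE (Maleless) in very young Drosophila melanogaster female embryos differed when their mothers had been depleted of the zinc finger protein CLAMP. It took 3 of the 5 libraries of the series: 1 CUT&RUN library from CLAMP-depleted embryos aged 0-2 h and the 2 control libraries of the same age, chosen by their labels and not by any measured value. Control mothers carried the maternal germ line driver MTD-GAL4 with an RNA interference construct against GFP (MTD-GAL4>GFPRNAi), a protein flies lack, and depleted mothers carried the same driver with the hairpin UAS-CLAMPRNAi[val22], so that both groups share the driver and an active RNA interference construct. All embryos came from crosses with the meiotic drive stocks +; SD72/CyO and another that carried 19-3, yw, Rsp[s]-B[s] over the duplication Dp(2:y)CB25-4 with y+, Rsp[s]B[s], together with SPSD/CyO, set up so that sperm carry an X and the progeny are female. In CUT&RUN an antibody bound to a protein on chromatin directs a nuclease to it, and the released DNA is sequenced. The antibody here was a rat antibody to MLE. Only the maternal supply of CLAMP was targeted, embryos of several crosses and egg-layings were collected, and CLAMP itself was not measured in these files, so that the depletion was not checked. With 1 depleted library no test between the conditions was possible, and the difference between the 2 controls was used as the measure of how far libraries of 1 genotype differ.

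MLE unwinds the roX RNAs and is a subunit of the male-specific lethal complex, which raises transcription of the single X of male flies. Females do not assemble this complex, but they contain MLE, which also acts in RNA processing. CLAMP binds GA-rich repeats on all chromosomes, recruits the male complex to the X, acts at the promoters of the histone gene array and opens chromatin at many promoters around the onset of zygotic transcription. The 0-2 h window precedes most of that transcription, so maternal proteins and RNA predominate.

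The clampRNAi list was the shortest of the 3. It held 493 peaks, against 723 in control replicate 1 and 1247 in control replicate 2. Its peaks were also the narrowest, with a median width of 81 bp against 100 bp and 110 bp, and 70.4% of them were under 200 bp against at most 60.5% in a control. The authors' total signal (coverage summed over a peak) started at 6840 in the clampRNAi list, at 10424 in control replicate 1 and at 5960 in control replicate 2. Sequencing depth is unknown, no library without antibody was used here, and no scaling between lists is given in the sources used here, so signal is reported as each list's own value and not as a measured difference. Peaks on the Y chromosome were present although the crosses should give no Y-bearing embryos, with 17 and 21 in the controls and 10 after clampRNAi. Whether these come from sequence shared with other chromosomes was not tested. Merging peaks with an overlap of 1 bp or more gave 1352 regions over the 3 lists, of which 483 were called in the clampRNAi list.

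At the level of genes, most positions called in both controls were found again with CLAMP depleted, while of all genes called in control replicate 2 the smaller part was. A gene was called in a library when a peak touched its annotated extent widened by 500 bp on both sides. Of 17673 genes on the main chromosome arms, 448 (2.53%) were called in control replicate 1, 720 (4.07%) in control replicate 2 and 328 (1.86%) after clampRNAi. Both controls called 377 genes (2.13%), and 314 of them, 83.3% (Clopper-Pearson 95% interval 79.1% to 86.9%, over genes only), were called after clampRNAi. In 313 of these 314 genes the 3 lists shared a merged region. For comparison, 84.2% of the genes of control replicate 1 were called in replicate 2, and 52.4% of the genes of replicate 2 in replicate 1. The clampRNAi list called 70.5% of the genes of control replicate 1 and 44.7% of those of replicate 2. Of its own 328 genes, 316 were called in control replicate 1 and 322 in control replicate 2.

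**Figure D1:**
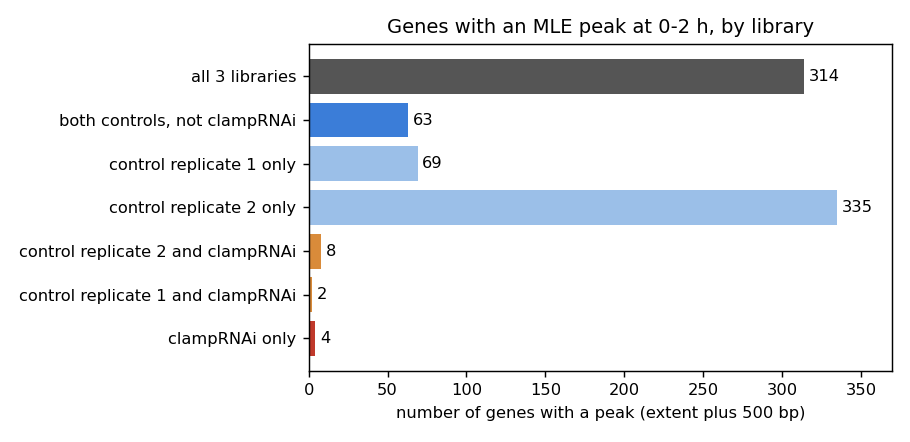
Number of main-arm genes with a peak within the gene extent plus 500 bp, by the combination of the 3 libraries that called them. The bars of 314 genes in all 3 lists and 335 genes in control replicate 2 only are the longest, 63 genes were called in both controls and not after clampRNAi, and 4 were called after clampRNAi only.

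Among genes called in all 3 lists, those of highest mean rank mostly kept peaks of nearly the same width. Ranks are percentiles of total signal within a list, from 0 for the weakest peak to 100 for the strongest. In spok, which encodes a cytochrome P450 of ecdysone synthesis (3R, 3322810 to 3354486 on dm6), the peak was 148 bp and 146 bp wide in the controls and 140 bp after clampRNAi. Its maximum signal was 23784, 19762 and 11465 in the same order. In gpp, which encodes the histone H3 methyltransferase Grappa (3R, 6406855 to 6449274), widths were 116 bp, 118 bp and 110 bp and maxima 10868, 18515 and 5486. The strongest peak of SK (X, 5340236 to 5405138), whose product is a potassium channel opened by calcium, was 99 bp, 151 bp and 100 bp wide. In Glg1, a Golgi glycoprotein gene (3L, 21497549 to 21507538), widths were 156 bp, 179 bp and 153 bp. In all 4 genes the clampRNAi peak had the lowest maximum of the 3, on lists whose relative scale is unknown. The remaining genes of the leading 8 were up, a troponin T gene, the ubiquitin ligase gene ctrip, and Mur2B and br, which overlap each other and share 1 leading peak on X. The br gene encodes the ecdysone-induced Broad factors. Their clampRNAi percentiles ran from 97.97 to 99.2.

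The 63 genes called in both controls and not after clampRNAi, 16.7% of the 377, had lower-ranked peaks. Their median percentiles were 16.3 in control replicate 1 and 40.5 in replicate 2, against 68.9 and 72.7 for the genes called in all 3 lists. They were shorter as well, with a median extent of 17.2 kb against 28.4 kb. In 56 of the 63 the controls shared a merged region. The count changed with list length: when all lists were reduced to their 493 strongest peaks by total signal, 1 gene (mub) was called in both controls and not after clampRNAi, of 222 called in both controls. As 493 is the full length of the clampRNAi list, only the controls lost peaks, and these were their lowest-ranked. The smaller count therefore cannot show why the 63 genes were not called, which was not tested. The strongest mub peaks of the controls lay at different places, from 21850385 in replicate 1 and from 21932179 in replicate 2. With 1 peak in the control that had fewer, 243 of 305 genes were called after clampRNAi, with 2 peaks 43 of 44, and with 3 or more 28 of 28.

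Among the 8 protein-coding genes of highest control rank in this set, several differed widely between the 2 controls. In dco, which encodes a casein kinase of the circadian clock, the maximum was 220 in control replicate 1 and 149346 in replicate 2. In Snap24, a gene of membrane fusion, it was 189 and 105398. Rab10, a small GTPase gene, and its neighbour CG17065 shared 1 peak with 157 and 96038. These peaks lay at percentiles of 13.8 to 30.7 in replicate 1 and of 99.4 to 99.7 in replicate 2, and the clampRNAi list had none there. In mub, which encodes a KH-domain splicing regulator, replicate 1 had 1 peak with a maximum of 632. The strongest of 2 peaks in replicate 2 reached 27247 at another place. At the region both controls shared, the maxima were 632 and 205. The strongest peaks of CG42541 had 265 and 1075, and those of CG1677 297 and 4583. In both genes these peaks lay at different places in the 2 controls. At the region both controls shared in each gene, the maxima differed much less. In lola, a BTB zinc finger gene of axon growth, the controls had peaks at different places, with maxima of 43 and 1032.

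The share of regions found again followed their rank in the controls. Of the 608 regions called in both controls, 468 (77.0%, exact interval 73.4% to 80.3%) were called after clampRNAi and 140 (23.0%) were not. Ordered by mean control percentile, 32 of the lowest 122 regions were called after clampRNAi, then 94 of 121, 106 of 122 and 114 of 121, and 122 of 122 at the top. Within control replicate 1, 12.7% of the regions in the lowest 20% of ranks were called after clampRNAi against 58.5% in the other control, and in the highest 20% 99.3% in both. Within control replicate 2 the highest 20% were called again less often, 59.2% after clampRNAi and 62.0% in replicate 1, than the 20% below them, at 69.1% and 75.1%. The clampRNAi list thus missed about as many of the strongest peaks of replicate 2 as the other control did. The gap between clampRNAi and the other control was widest in the lowest 20% of replicate 1 and, for replicate 2, in the middle 20%, with 51.2% after clampRNAi and 73.2% in replicate 1.

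**Figure D2:**
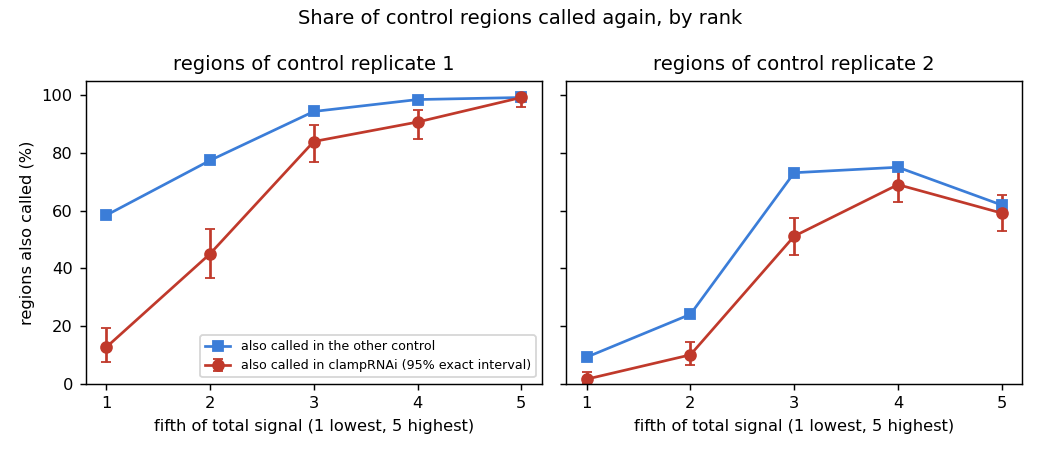
Percent of the regions of control replicate 1 (left) and control replicate 2 (right) that were also called in clampRNAi (circles, with 95% Clopper-Pearson intervals over regions) or in the other control (squares), in 5 equal ranges of percentile of total signal within the control list. In replicate 1 the clampRNAi share climbs from 12.7% to 99.3%, and in replicate 2 it is 59.2% in the top range beside 62.0% for the other control.

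How many of the 140 regions would have fallen under the lowest clampRNAi total can be described by scaling. At the 460 regions with exactly 1 peak in each list, clampRNAi totals were a median of 0.515 of those of control replicate 1 and 0.445 of those of replicate 2. Multiplied by these ratios, the totals of 60 of the 140 regions lay under 6840 from both controls, those of 49 from 1 control, and those of 31 from neither. Of the 468 regions that were called, 405 lay at or above that value from both controls. Of all 436 regions at or above it from both controls, 92.9% (exact interval 90.1% to 95.1%) were thus called after clampRNAi. This scaling was added after the data were seen. Its ratios rest only on regions called after clampRNAi, so regions whose signal fell too low to be called could not enter them. The share is thus a description and not a measure of what was lost. Of the 31 exceptions, those inside protein-coding genes lay in Pzl, which encodes a Piezo-like channel, Act5C, the main cytoplasmic actin gene, Pka-R2, a protein kinase A regulatory subunit gene, dco, CG42541, Myo81F, Elovl7 and g. Of these, Pzl, Pka-R2 and Myo81F were called after clampRNAi through other peaks. The 8 genes were picked out after their values were seen. Their scaled totals from replicates 1 and 2 went down to 7056 and 6846 in g, little above 6840, while Pzl had 10698 and 12420. Many of the other exceptions lay off the main arms, on contigs or Y. The Act5C peak (X) spanned 5902812 to 5903167 in control replicate 1 with a maximum of 95, and 5902751 to 5903828 in replicate 2 with 38.

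The share was also compared between chromosomes. On X 200 of 253 regions in both controls were called after clampRNAi (79.1%) and on the autosomal arms 220 of 266 (82.7%), whose intervals of 73.5% to 83.9% and 77.6% to 87.1% overlap. Off the main arms 48 of 89 were called (53.9%, interval 43.0% to 64.6%). There, unplaced X contigs kept 8 of 24 regions, Y and its contigs 10 of 16, and other unplaced contigs 29 of 48. The controls also differed by chromosome. Regions called in control replicate 1 alone numbered 30 off the main arms, 10 on X and 59 on the autosomal arms. For control replicate 2 alone they numbered 76, 228 and 326 in the same order. Whether the lower share off the main arms is particular to clampRNAi was not tested. By gene, X kept 133 of 154 and the autosomal arms 181 of 223. By width, 82.8% of regions with both control peaks under 200 bp were called after clampRNAi and 65.6% of those with both at 200 bp or more.

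Very few positions were found after clampRNAi alone. Of 483 regions, 480 were called in a control. Of the 3 others, 1 lay on a main arm, in Cda4, a chitin deacetylase gene (X, 22583634 to 22632710), where a peak of 1545 bp had a maximum of 8 and a percentile of 2.03. The 4 genes called after clampRNAi and in neither control were 1.22% of its 328 genes. For 3 of them, CG43861, CG3566 and the pseudogene CR46419, the clampRNAi peak overlapped a control peak that ended short of the widened extent, so that the call rested on where a peak ended. With gene extents not widened, 1 gene was left. In hry (hairy), a pair-rule segmentation gene (3L, 8675759 to 8679253), a peak of 40 bp from 8677028 to 8677067 had the same edges in both lists. Its maximum was 3864 in control replicate 1 and 4771 after clampRNAi, at percentiles of 92.7 and 95.1, and control replicate 2 had no peak there.

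Dosage compensation and sex determination genes mostly carried no peak in any of the 3 lists, as did genes in general. Of all 17673 main-arm genes, 795 were called in at least 1 list. Of 9 dosage compensation genes, Clamp was called in all 3 lists, while the RNA genes roX1 and roX2 and the complex subunit genes msl-1, msl-2, msl-3, mof and mle, and the chromatin kinase gene JIL-1, were called in 0 lists. Of 20 sex determination genes 1 was called. This was fru, whose male products direct courtship circuits (3R, 18414273 to 18545586), with a maximum of 238 in control replicate 1 and 261 in replicate 2, at percentiles of 7.19 and 40.5, and no clampRNAi peak. Sxl, tra and dsx had none.

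At Clamp itself (2L, 22165720 to 22169143) the clampRNAi list held 1 peak of 1658 bp with a maximum of 3075, at a percentile of 99.8. Control replicate 1 had 2 peaks, the stronger with a maximum of 1621, and control replicate 2 had 1 peak with 170. The strongest peak was 1065 bp wide in replicate 1 and 621 bp in replicate 2, at percentiles of 98.3 and 81.7. The lists thus called different stretches of this region, and no ratio of their totals is given.

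Of 9 genes for GA-repeat binding and pioneer factors, 3 were called in both controls and all 3 after clampRNAi: Clamp, psq and opa. Over all genes, 2.13% were called in both controls and 83.3% of these after clampRNAi, and 795 of 17673 were called in any list. The peak of psq, which encodes a GAGA-binding BTB factor, had a maximum of 366 and 230 at the same position in control replicate 1 and clampRNAi, while the strongest peak of replicate 2 lay elsewhere in the gene. In opa, a pair-rule and pioneer factor gene, maxima were 2251 and 3796 for the controls and 1300 with CLAMP depleted. The gene of the pioneer factor Zelda, zld, was called in control replicate 2 alone (maximum 260), and Trl, which encodes GAGA factor, in 0 lists. The Hox genes Antp and Abd-B, 2 of 8, were called in all 3 lists, at clampRNAi percentiles of 0.811 and 45.6. Of 34 segmentation and dorsoventral genes, 2 were called in both controls. The repressor gene brk was not found after clampRNAi and opa was, and hry, described above, brought the clampRNAi count to 2. Of 21 Polycomb and trithorax genes gpp alone was called, in all 3 lists. The 7 early cellularisation genes were called in 0 lists.

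Genes of nerve cells, many of them long, made up much of the listed genes called in all 3 lists. The median extent was 30.1 kb over 36 ion channel genes and 87.9 kb over 17 neural RNA-binding genes, against 1.71 kb over all genes, and no list was tested. Of the ion channel genes, 9 were called in both controls and 8 after clampRNAi, which is 22.2% of the list beside 1.86% of all genes. The potassium channel genes slo, Sh, SK and KCNQ, the sodium channel gene para and Hk, a potassium channel subunit gene, were among them. The peak of slo had maxima of 1545 and 2360 for the controls and 797 for clampRNAi, and that of para 993, 1154 and 548. The exception was nAChRalpha4, an acetylcholine receptor gene whose control peaks lay in different regions. Of 39 axon guidance and adhesion genes, 11 were called in both controls and 10 of these after clampRNAi. Over all genes, 2.13% were called in both controls and 83.3% of these after clampRNAi. The teneurin gene Ten-a had 5, 8 and 4 peaks, the myoblast and axon adhesion gene kirre 5, 7 and 4, and side, a gene of motor axon pathfinding, 1 in each list. Sema1a, a semaphorin gene, was not found after clampRNAi, with control maxima of 349 and 321. The 32 genes of the dpr and DIP cell-surface families had 7 called in both controls and the same 7 after clampRNAi, beside the same shares over all genes. In DIP-beta, for example, the maximum was 2597 and 4402 for the controls and 1316 after clampRNAi.

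Of 17 neural RNA-binding and splicing regulators, 7 were called in both controls and 5 of these after clampRNAi, beside 2.13% of all genes in both controls and 83.3% of those after clampRNAi. They were bru3, bru1, fne, Rbfox1 and pum, and those not found were mub and Rbp6. In bru3, an Arrest-family splicing factor gene, the leading peak had maxima of 8185, 6507 and 3793 and widths of 115 bp, 115 bp and 101 bp. In Rbfox1 the maxima were 713, 761 and 262, and the control percentiles were 60.6 and 63.0 and that after clampRNAi was 28.8. The general RNA-processing genes are much shorter. Their median extent was 3.32 kb for spliceosome and SR protein genes and 4.63 kb for RNA helicase genes. A longer extent gives a peak more room to touch it, but whether length accounts for these counts was not tested. Of 20 spliceosome and SR protein genes 1 was called in any list, sqd, which encodes an hnRNP of oocyte RNA localisation, with maxima of 648, 735 and 451. Of 15 RNA helicase genes, mle among them, 0 were called in any list. Over all genes 795 of 17673 were called in any list, so that most genes had no peak. Of 13 germ plasm and piRNA genes, bru1 and pum were called in all 3 lists and AGO3 in control replicate 2 alone. Of 18 genes of heterochromatin, spok and Myo81F were called in all 3 lists and 5 others in control replicate 2 alone.

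The replication-dependent histone genes had control peaks and no clampRNAi peak. They form a tandem array on 2L (21416953 to 21541681) of 111 annotated genes whose copies are nearly identical, so that reads of 1 copy can be placed on another. Control replicate 1 had 3 peaks there touching 13 genes, and control replicate 2 had 11 peaks touching 44 genes, so that 1 peak touched several neighbouring genes. The clampRNAi list had 0. Over all main-arm genes, 2.53% were called in control replicate 1, 4.07% in control replicate 2 and 1.86% after clampRNAi. The control peaks had percentiles of 2.77 to 31.4 in replicate 1 and of 3.61 to 48.9 in replicate 2. Scaled by 0.515 and 0.445 as above, 2 of the 3 and 10 of the 11 lay under the lowest clampRNAi total of 6840, and the highest reached 7460 and 6921. Scaled totals under 6840 also occurred at regions that were called after clampRNAi, 26 of them scaled from replicate 1 and 51 from replicate 2. Whether the array peaks are absent after clampRNAi because of their low totals was not tested. These peaks were broad and low, 1654 to 3581 bp wide with maxima of 7 to 20, and only 4 histone genes were called in both controls, through 1 region. Peaks of this kind (at least 1000 bp wide with a maximum of at most 20) numbered 3 in control replicate 1, 99 in control replicate 2 and 9 in the clampRNAi list, so that most of them were in control replicate 2. The 3 of replicate 1 were its array peaks, while 0 of the 9 after clampRNAi lay in the array. How far the number of such peaks per list accounts for the histone counts was not tested. Outside the array, His3.3A was called in control replicate 2 and after clampRNAi, with maxima of 50 and 28. The 3 U6 genes at 96A (3R), among 32 snRNA genes, shared 1 peak of 1242 bp, 1246 bp and 1243 bp in the 3 lists, with maxima of 337, 197 and 171. Of 295 tRNA genes 2 were called, in control replicate 1 alone, beside 2.53% of all genes in that list.

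Peak shape was compared at the 460 regions with 1 peak in each list, 197 on X, 218 on autosomal arms and 45 off the main arms. Median width was 82 bp and 99 bp in the controls and 78 bp after clampRNAi. The width after clampRNAi lay below both controls at 252 regions (54.8%), above both at 63 (13.7%) and from the lower to the higher control at 145 (31.5%). The median log2 ratio of clampRNAi to the mean of the controls was -0.12. Against replicate 1 alone it was -0.028, and between the controls, replicate 2 over replicate 1, it was 0.053. The median absolute log2 difference was 0.093 between clampRNAi and control replicate 1, 0.15 between the controls and 0.19 between clampRNAi and replicate 2. Against replicate 1 the typical width difference was thus smaller than that between the 2 controls, and against replicate 2 somewhat larger. Both edges lay within 10 bp of each other at 307 regions (66.7%) for clampRNAi and control replicate 1, at 236 (51.3%) for the controls and at 231 (50.2%) for clampRNAi and replicate 2. The position of the maximum moved less, and lay within 10 bp at 90.4%, 92.8% and 90.4% of regions in the same order.

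**Figure D3:**
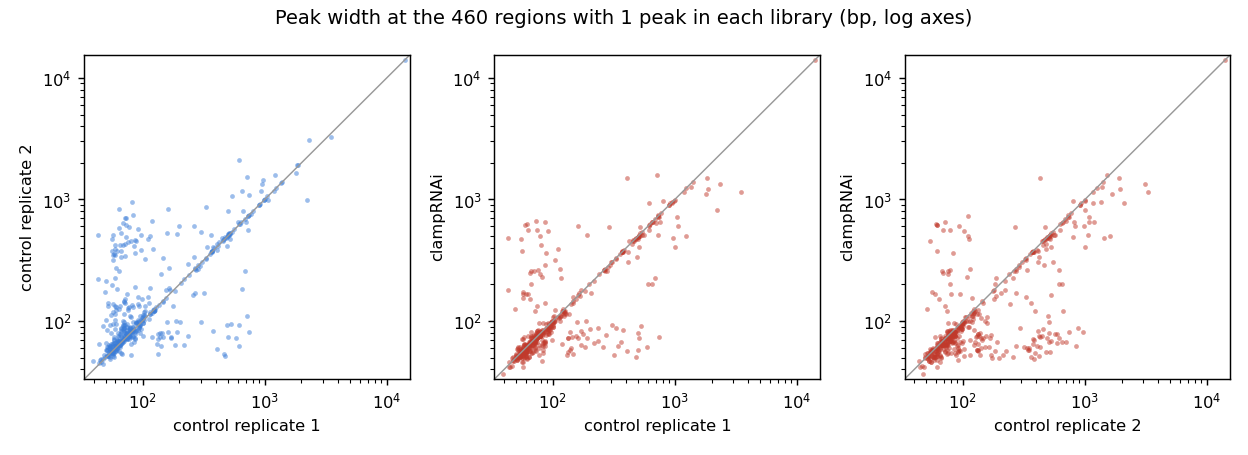
Peak width in bp (log axes) at the 460 regions with 1 peak in each list, for the 2 controls (left) and for clampRNAi against each control (middle, right), 1 point per region with the line of equal width. Most points lie along the line, and the off-line points, where 1 list has a much wider peak than the other, occur in all 3 panels, with 108 regions over 1.5 times narrower after clampRNAi than in replicate 2 and 32 wider.

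A minority of regions switched between a narrow and a wide form. Against control replicate 1, 53 regions were more than 1.5 times narrower after clampRNAi and 42 more than 1.5 times wider. Against replicate 2 they numbered 108 and 32, and between the controls 99 regions were wider and 40 narrower in replicate 2. Among regions narrower than in both controls, the largest falls lay in SPR, the sex peptide receptor gene (366 bp and 507 bp to 67 bp), shn, a zinc finger cofactor gene of Dpp signalling (499 bp and 506 bp to 79 bp), bru3, at a weaker peak (329 bp and 872 bp to 87 bp), near CG1958 (340 bp and 406 bp to 62 bp) and in luna (318 bp and 169 bp to 53 bp). Among regions wider than in both controls, the largest rises lay near CG15140 (62 bp and 60 bp to 627 bp), in dnc, the cAMP phosphodiesterase gene of learning (59 bp and 62 bp to 620 bp), in CG32683 (63 bp and 69 bp to 563 bp), in CG4022 (87 bp and 71 bp to 647 bp) and near CG14147 (74 bp and 78 bp to 558 bp). At SPR the rank among the 460 regions was 325 after clampRNAi, between its control ranks of 309 and 337.

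The ratio of maximum to total signal, which no scaling of a library changes, hardly differed. Its median was 2.24% and 2.22% in the controls and 2.25% after clampRNAi, so that a typical maximum held about the same part of the summed signal in each list. The median log2 ratio of clampRNAi to the mean of the controls was 0.0063, and the median absolute log2 difference was 0.019 from control replicate 1, 0.023 from replicate 2 and 0.031 between the controls. After clampRNAi the ratio lay above both controls at 167 regions (36.3%), below both at 81 (17.6%) and between them at 212 (46.1%). Spearman's rank correlation across the 460 regions was 0.988 with control replicate 1, 0.981 with replicate 2 and 0.973 between the controls, as a description of regions that share each library's depth. The measure that combines width with this ratio, mean over maximum coverage of a peak, had medians of 0.571 and 0.518 in the controls and 0.595 after clampRNAi, above both controls at 233 regions (50.7%), below both at 94 (20.4%) and between them at 133 (28.9%).

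**Figure D4:**
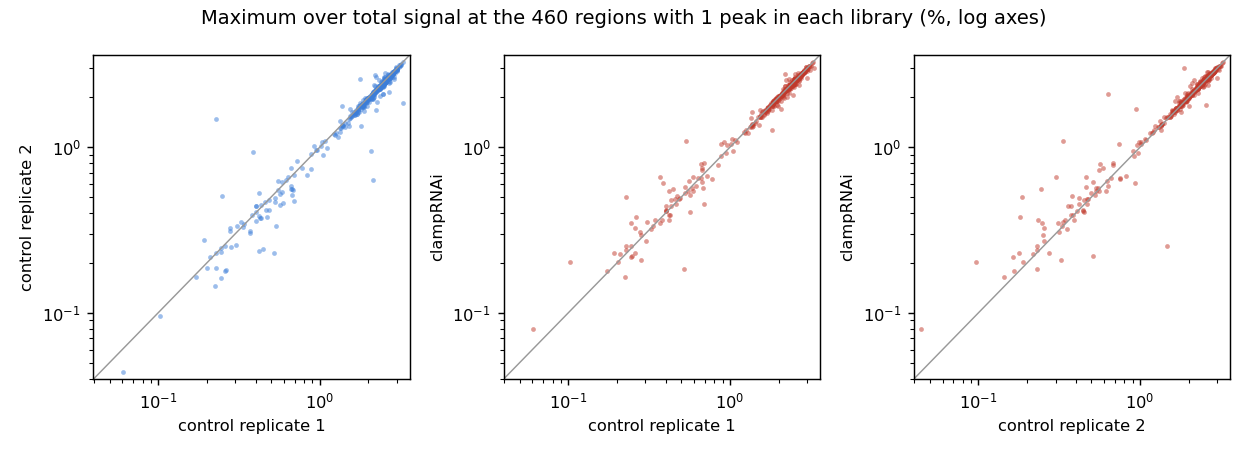
Maximum signal as a percent of total signal of a peak (log axes) at the 460 regions with 1 peak in each list, for the 2 controls (left) and for clampRNAi against each control (middle, right), 1 point per region. Most points lie near the line of equality in all 3 panels, with medians of 2.24%, 2.22% and 2.25% in control replicate 1, control replicate 2 and clampRNAi.

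The regions with the largest departures were wide, and many lay off the main arms. The ratio rose most after clampRNAi on an unplaced contig, on an X contig, at 2 regions of the X arm whose nearest protein-coding gene, ATbp, lay 118740 bp and 324558 bp away, and in PlexA, a plexin gene on chromosome 4, where widths were 750 bp, 1084 bp and 656 bp. It fell most at 3 regions on Y, near Osi6, and in Ubi-p5E, a polyubiquitin gene (X, 6276876 to 6279647). There the weaker of 2 peaks was 409 bp and 428 bp wide in the controls and 1489 bp after clampRNAi, with maxima of 114, 64 and 70. Over the 87 regions with all peaks at 200 bp or more the median log2 ratio to the mean of the controls was 0.046, and over the 274 with all peaks under 200 bp it was 0.0031.

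The order of total signal among shared regions was close to that of control replicate 1. Spearman's rank correlation across the 460 regions was 0.921 with replicate 1 and 0.788 with replicate 2, and 0.823 between the controls. For the maximum the values were 0.972, 0.805 and 0.828. The rank among the 460 regions lay above both controls at 172 (37.4%), below both at 93 (20.2%) and between them at 195 (42.4%). Ranks after clampRNAi differed from those in replicate 1 by a median of 16.5 places of 460, and the controls differed from each other by 34.5. The total was below both controls at 448 regions (97.4%), above both at 2 (0.435%) and between them at 10, on lists whose relative scale is unknown. After centring each ratio on its median region, a step added after the data were seen, 12 regions (2.61%) were more than 2-fold lower than in both controls and 2 (0.435%) more than 2-fold higher. Between the controls, centred in the same way, replicate 2 was more than 2-fold higher than replicate 1 at 27 regions and lower at 30. Against replicate 1 alone clampRNAi was higher at 2 and lower at 18, and against replicate 2 alone higher at 16 and lower at 29, so that neither set exceeded the number between the controls.

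The 12 lower regions lay on unplaced contigs (8), on Y (3) and on the X arm (1), and none on the autosomal arms, where 218 regions were compared. They were 8 of 27 regions on unplaced contigs and 3 of 10 on Y and its contigs. In the same classes the controls also differed by more than 2-fold, replicate 2 being higher at 8 and lower at 3 of the 27 and higher at 3 and lower at 1 of the 10. On Y, 1 region had maxima of 572 and 5991 in the controls and 78 after clampRNAi, and another had 181, 570 and 20. In 11 of the 12 the signal of control replicate 2, centred in the same way, was also higher than that of replicate 1, so the order was replicate 2, replicate 1, clampRNAi. The exception was the region on X. The 2 higher regions were 1 on Y, which had maxima of 58, 19 and 25, and 1 in CG42699 on X (5788758 to 5789000). The latter was 240 bp, 240 bp and 243 bp wide with nearly the same edges in each list, and had maxima of 8508 and 56 in the controls and 64805 after clampRNAi, where it was the strongest peak of the list. The controls differed there by more than clampRNAi did from replicate 1. By rank the largest rises were at this region, at a peak in Pka-R2 (2R) with ranks of 205 and 4 in the controls and 314 after clampRNAi, at that Y region, at the weaker Ubi-p5E peak and on an unplaced contig. The 5 largest falls in rank were on Y and on unplaced contigs.

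**Figure D5:**
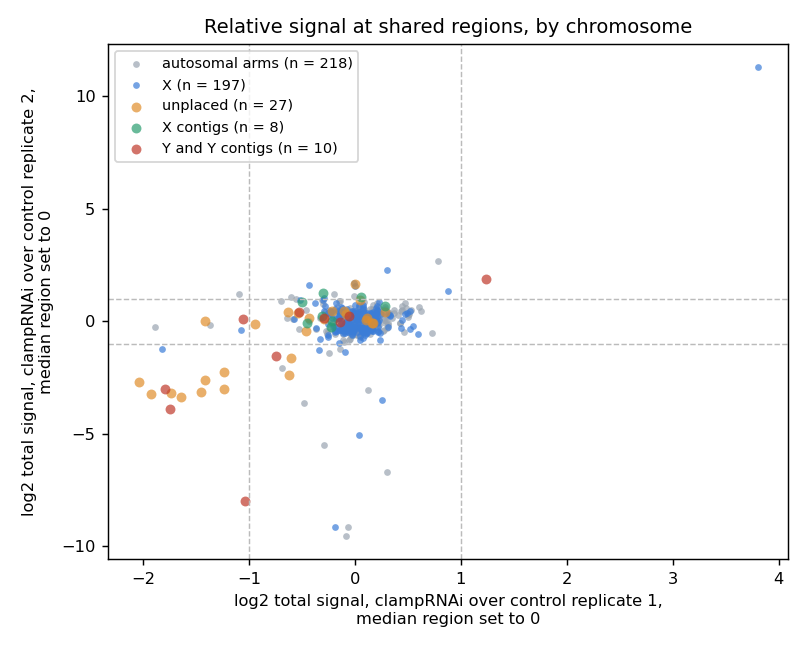
Log2 ratio of total signal of clampRNAi to control replicate 1 (horizontal) and to control replicate 2 (vertical) at the 460 shared regions, each with its median set to 0, coloured by chromosome class. Dashed lines mark 2-fold. The 12 regions at lower left, 11 of them on unplaced contigs and Y, were lower against both controls, and the point farthest to the upper right is the CG42699 region.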

How the data were processed

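CUT&RUN against MLE was compared in 3 libraries of 0-2 h female embryos, 2 control and 1 clampRNAi, grouped by sample title. Nothing in the labels says which crosses went into which library. Reads were paired, 150 bp long per the labels. Tools named, without roles, per the submitters' processing notes were SEACR 1.3, Bowtie2 2.4.4, Trimmomatic 0.40, deepTools and bcl2fastq, with dm6 as the build. The deposited lists, 1 per library, give per peak the authors' total and maximum signal (coverage) in the layout of SEACR. The threshold, any control track and any scaling by the yeast spike-in DNA are not stated in the labels or lists, and depth is unknown. The 2-4 h lists were not used here.

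Peaks sharing 1 bp were merged over the 3 lists. Gene extents came from RefSeq (assembly Release 6 plus ISO1 MT, which is dm6), without strand or exons. Coordinates are 1-based. Ratios and shapes were computed with Python 3.11.15, pandas 2.3.3 and scipy 1.17.1, and checked on simulated lists. Intervals are Clopper-Pearson at 95% and cover counting error over regions or genes only, and amplified reads are not independent. No test was run.

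The comparison and the 18 gene lists were chosen with earlier results of these data known. Named genes followed a rule: 15 regulators of dosage compensation, sex and chromatin, the 8 genes of highest mean rank in all 3 lists and the 8 in both controls only, all 4 in clampRNAi only, the 5 largest rises and falls in width, maximum over total and rank, and up to 4 genes per list. Other names in the text were chosen after their values were seen. Of the list entries, 3 were removed, Glg1 and gpp among them, from lists they did not belong to after their values were known, and the symbols nos and Srsf10 were not matched. A planned motif count was not run for want of sequence in the tables used here, and no sequence is printed. A gene result is not reported here. Alternatives were other overlaps, peak subsets, gene windows and control sets.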

Additional observations from a re-analysis of the deposited data

How the results depend on the processing

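The share of regions in both controls that was called after clampRNAi, 77.0%, became 94.8% with lists of equal length (493 peaks), 92.9% above the scaled lowest total, 80.9% on main arms, 71.5% with the stronger 50% of each list, 68.4% with reciprocal overlap of 50% and 61.7% with peaks of at least 200 bp. Taking 1 control alone gave 38.3% to 66.2%. The share of genes, 83.3%, became 99.5% with equal lengths, 68.6% with peaks of at least 200 bp and 44.7% to 70.5% with 1 control. Genes in both controls and not clampRNAi, 63, became 1 with equal lengths, 22 with peaks of at least 200 bp and 132 to 398 with 1 control. The 4 genes in clampRNAi alone became 34 with equal lengths (30 of them called in a full control list), 13 with peaks of at least 200 bp, 2 with the stronger 50% or with extents widened by 2000 bp, 1 without widening or by the midpoint of the maximum, and 6 to 12 with 1 control. The 42 listed genes called in all 3 lists became 27, 24 and 11 with equal lengths, the stronger 50% and peaks of at least 200 bp, and 42 to 44 with 1 control. The log2 maximum over total, 0.0063, became 0.046 at regions with peaks of at least 200 bp and ranged from -0.0027 to 0.016 with 1 control, changing sign without replicate 2. The log2 width ratio ranged from -0.12 to -0.028 with 1 control, and mean over maximum coverage, 0.045 above the controls, from 0.014 to 0.042. The causes of these shifts were not tested, among them the smaller number of peaks in the peak subsets. Of 85 named genes, the clampRNAi call changed for 29 with peaks of at least 200 bp, 14 with the stronger 50%, 5 by midpoint and 4 without widening. No paired analysis was possible because the clampRNAi library has no replicate number and no test was run. Signal with unknown depth limits every comparison of low peaks.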

Other observations

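The mitochondrial genome held 6 peaks in control replicate 1, 1 in control replicate 2 and 4 after clampRNAi, which merged into 1 region with summed totals of 583772, 13010154 and 705765. On the unplaced contig CP007120v1, a merged region from 35969 to 59239 held 2, 1 and 5 peaks with summed totals of 960229, 1082947 and 338779. The lists called different stretches of these regions, so the totals are not compared. The 5S rRNA gene 5SrRNA:CR33447 on 2R was called in both controls, with maxima of 332 and 120, and not after clampRNAi. Its control peaks, from 19730707 to 19732927 and from 19731932 to 19732926, lay in 1 merged region that was also called after clampRNAi. The clampRNAi signal there did not reach the gene extent widened by 500 bp, so the call rested on where peaks ended.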
